A study of Mus musculus with 12 samples.

Results

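The genes examined here encode the inhibitory synapse: 25 genes for GABA and glycine receptor subunits, for the synthesis, transport and breakdown of GABA, for the postsynaptic scaffold and for chloride transport, out of 41091 gene IDs in the count tables. They were taken by symbol from a list of inhibitory synapse genes. The list does not use their measured values, although it was drawn up with earlier results of these data known. All 25 were found and passed the filter on low counts in each of the 5 comparisons below. RNA came from acute hippocampal mini-slices of male wild-type C57BL/6 mice of 2 to 3 months, from which the dentate gyrus had been trimmed. After 2 hr of recovery, chemical LTP (long-term potentiation, a lasting strengthening of excitatory synapses, here induced by drugs and ions rather than by electrodes) was started with forskolin, which activates adenylyl cyclase, at 50 uM for 5 min and then with forskolin plus 30 mM KCl and 10 mM calcium for another 5 min. Control slices of the same animals were given 0.2% DMSO over 10 min. Slices were frozen 1 hr or 3 hr afterwards, which gives 4 groups (1 hr control, 1 hr LTP, 3 hr control, 3 hr LTP) of 3 libraries, each library from 1 animal. The study made libraries from preparations chosen by RT-qPCR. In these Arc, an immediate early gene, and the short isoform of Homer1 had risen, while the long Homer1 isoform and Hprt were unaltered. Slices without that response were therefore not sampled.

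Library totals lay between 37118382 and 50815001 counts, at which 3 counts correspond to at most 0.0808 CPM (counts scaled to library size). Replicate 2 of the 1 hr controls and replicate 3 of the 3 hr LTP group stood apart. For the first, the chi-square per degree of freedom was 47 and 63.3 against the other 1 hr controls, which differed from each other by 10.2, and 1.65% of its counts fell on IDs without a symbol, against 0.11 to 0.27% elsewhere. As in the study's own analysis it was left out of the fits. The 1 hr controls are therefore n = 2 below. For the 25 genes, where a call that rests on them changes with that library, the value with it included is also given. This was not done for the further genes of inhibitory signalling or for cell type markers. Replicate 3 of the 3 hr LTP group had 44 and 85.6 against its own replicates, which differed from each other by 24.1, and stayed in the fits. Without it 0 of the 25 genes were called at 3 hr (2 with it), and between time points 10 in controls (11) and 8 in LTP slices (10). The slices hold every hippocampal cell type at once, so fewer cells of a type and less RNA per cell cannot be told apart. Markers of pyramidal neurons (Slc17a7, 527 to 910.3 CPM) and interneurons (Sst, 55.3 to 89.9 CPM) were present in all 11 fitted libraries, as were those of dentate granule cells (Prox1, 45.9 to 79.8 CPM) although that region had been trimmed. The interneuron marker Nkx2-1 was close to absent, at 0.024 to 0.18 CPM.

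GABA is the main inhibitory transmitter of the hippocampus. Interneurons make it from glutamate, load it into vesicles and release it onto GABA-A receptors, which are chloride channels built from several subunits, and GABA-B receptors, which act through G proteins. The alpha and gamma or delta subunits of a GABA-A receptor set where it sits and how it responds: alpha5 and delta receptors lie largely outside synapses and carry tonic inhibition, and alpha4 often pairs with delta. Whether an open chloride channel inhibits depends on the chloride gradient, which is set by cotransporters.

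The stretches upstream of 4 genes are shown because these genes carry the results that follow: Gabra4 and Gabrg3 passed the test between LTP and control slices, and Gabra5 and Gabarapl2 had the largest fall and rise between time points in control slices. Sequences are from RefSeq on GRCm38.p6, run 5′ to 3′ on the gene's strand up to the base before its start, and stop earlier for Gabra4, whose last 55 bases lie in a transcribed leader of its neighbour Gabrb1 and are not shown. Capitals mark GGGCGG (the GC box) and TGACG (the short form of the cAMP response element) on either strand. Gabra4 is read from chr5:71658364-71658558 (minus strand), Gabrg3 from chr7:57387216-57387465 (minus), Gabra5 from chr7:57510060-57510309 (minus) and Gabarapl2 from chr8:111940453-111940702 (plus).
Gabra4: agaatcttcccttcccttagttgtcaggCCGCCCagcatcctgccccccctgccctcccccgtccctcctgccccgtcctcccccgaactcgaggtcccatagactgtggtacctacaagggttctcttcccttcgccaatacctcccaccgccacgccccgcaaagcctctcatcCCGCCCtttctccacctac
Gabrg3: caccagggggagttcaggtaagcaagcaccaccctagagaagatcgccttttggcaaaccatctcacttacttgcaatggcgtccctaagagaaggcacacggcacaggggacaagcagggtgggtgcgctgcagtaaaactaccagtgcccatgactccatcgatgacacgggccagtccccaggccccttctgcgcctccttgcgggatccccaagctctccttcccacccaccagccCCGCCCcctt
Gabra5: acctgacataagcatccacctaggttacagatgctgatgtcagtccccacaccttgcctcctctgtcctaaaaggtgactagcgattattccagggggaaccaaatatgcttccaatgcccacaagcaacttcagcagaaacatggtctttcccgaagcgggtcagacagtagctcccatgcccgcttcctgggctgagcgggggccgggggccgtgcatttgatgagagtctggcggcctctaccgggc
Gabarapl2: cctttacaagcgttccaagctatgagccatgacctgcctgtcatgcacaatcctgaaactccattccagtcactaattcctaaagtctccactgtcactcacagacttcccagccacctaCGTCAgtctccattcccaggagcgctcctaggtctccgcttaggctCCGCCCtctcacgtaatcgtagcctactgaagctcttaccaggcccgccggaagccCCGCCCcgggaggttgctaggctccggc

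The Gabra4 stretch of 195 bases was 63.6% G or C and held 2 GC boxes, the Gabrg3 stretch of 250 bases held 1, the Gabarapl2 stretch held 2, and the Gabra5 stretch held 0. In Gabarapl2 TGACG matched on the minus strand, 130 bases before the start. RefSeq had such windows for 22 of the 25 genes, 27 windows in all, compared with 32851 windows over all genes. The GC box was in 15 of the 27 (55.6%) and in 32.7% of all windows, and the median share of G and C was 58.8% against 52.4%. The full cAMP response element TGACGTCA was in 0 of 27 windows and in 1.55% of all. Its short form TGACG was in 2 (Gad2 and Gabarapl2) and in 17.8% of all. The AP-1 motif TGANTCA was in 1 (Slc12a5) and in 6.75% of all, and TATAAA was in 5 and in 12.4% of all. Each motif was searched on both strands over 250 bases, and TGACG also counts every TGACGTCA. Such a match is a description of letters, and its absence says only that they are not in this window.

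Per kilobase of exon, the transcript levels of the 25 genes spanned 3 orders of magnitude in the 5 fitted control libraries. Gabarapl1, of the GABARAP family of ubiquitin-like trafficking and autophagy proteins, was highest with 257 ± 13.2 CPM per kb (mean ± SD, n = 5 here and in this paragraph). Gabbr1, the GABA-B subunit that binds the ligand, followed with 107 ± 11.8, overlapping in range with Gabra5 at 96.4 ± 18.7. Its partner Gabbr2, which couples to the G protein, lay lower at 56.8 ± 7.41. Below came a run of genes from Gabbr2 to Gphn in which each overlapped the next: Gabarap, Glrb (the glycine receptor beta subunit, which tethers to gephyrin) at 55.5 ± 6.87, Slc12a5, Gabarapl2, Abat (GABA transaminase) at 35.1 ± 1.36, Gad1, Gabrb2 and Gphn (gephyrin) at 28.5 ± 2.96. Among the alpha subunits the order was Gabra5, Gabra4 at 22.4 ± 0.731, Gabra3 at 12.2 ± 0.659 and Gabra2 at 7.44 ± 0.205 CPM per kb, with no overlap between neighbours. Gad1 stood at 33.6 ± 2.75 and Gad2 at 14.8 ± 2.61, both encoding glutamate decarboxylase, the enzyme that makes GABA. The lower end held Gabrd at 5.34 ± 0.390, Gabrg1 at 3.56 ± 0.238, Glra2 at 2.74 ± 0.143, Gabrg3 at 2.36 ± 0.291 and Glra3 at 0.215 ± 0.0252. A level per kb divides by all annotated exons. Where reads over coding sequence alone were counted, as the study's text has it, genes with long untranslated ends would read too low and this order could differ.

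**Figure D1:**
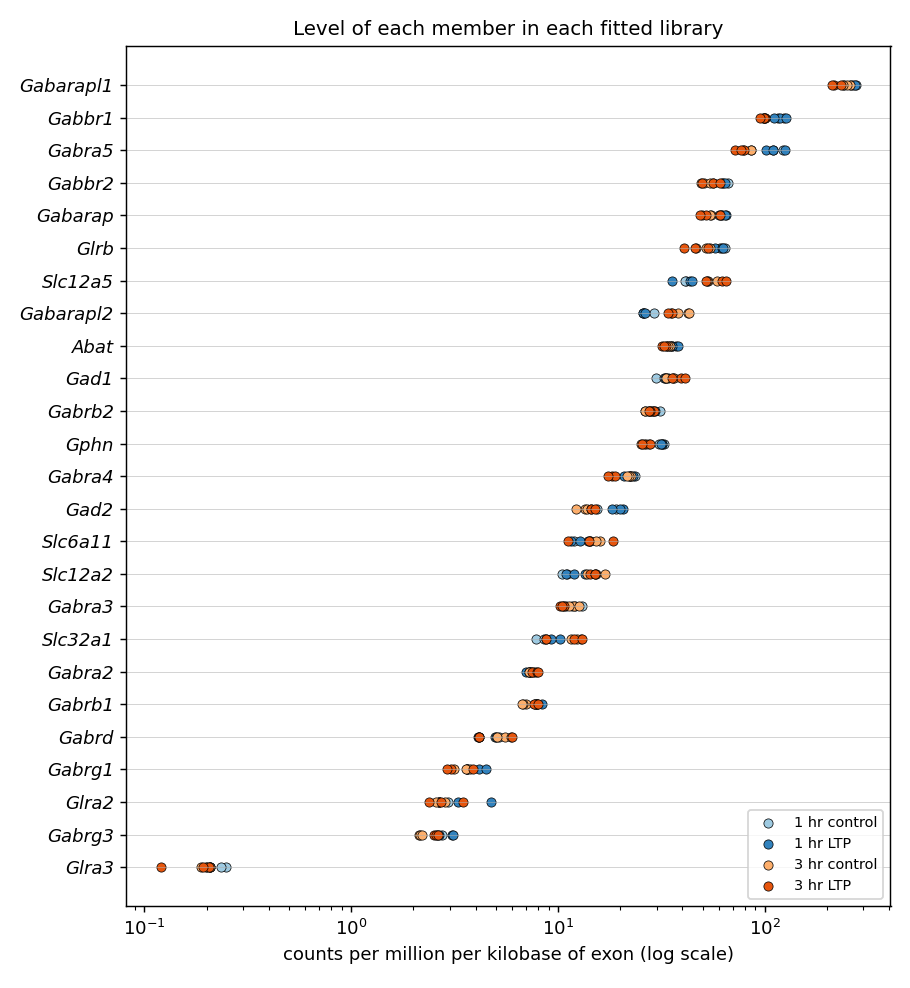
Level of each of the 25 genes in each of the 11 fitted libraries, as CPM per kilobase of exon on a log axis, with genes ordered by their mean in control libraries. Points are libraries coloured by group, and Gabarapl1 sits at the top (257 in controls) and Glra3 at the bottom (0.215).

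The first question was whether LTP induction changed these genes at 1 hr. None of the 25 was called at 1 hr by the edgeR quasi-likelihood test (call: Benjamini-Hochberg adjusted p under 0.1 and fold change over 1.2; 3 LTP against 2 control libraries), where 0.789% of 17736 tested genes were called. DESeq2 and limma-voom also called 0, and 4 of the 25 had an unadjusted p under 0.05, compared with 6.71% of all genes. These were Gabra3, Gad2, Slc32a1 and Slc12a2, with adjusted p from 0.727 to 0.732. Gad2 stood at 90.4 and 112 CPM in the control libraries and at 122, 117 and 107 in the LTP libraries, so the groups overlapped (log2 fold change 0.20, SE 0.0894). Slc32a1, the vesicular GABA transporter, had 22.0 and 24.0 CPM in controls and 28.5, 24.4 and 25.9 after LTP, with no overlap (0.20, SE 0.0931). With the left-out control included, at 26.6 CPM, Slc32a1 was at 0.13, Gabra3 at -0.07 and Gad2 at 0.27, still without a call.

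In the other role groups the gene with the smallest p at 1 hr was as follows. Among the receptor genes the log2 fold change was -0.17 for Gabra3, -0.11 for Gabrb2, 0.18 for Gabrg1, -0.19 for Gabrd, -0.08 for Gabbr2 and 0.36 for Glra2, whose 95% confidence interval ran from -0.05 to 0.77. Its LTP libraries stood at 10.4, 15.01 and 8.35 CPM against 8.40 and 9.24 in controls, and without 1 hr LTP replicate 2 the value was 0.09 (SE 0.142). With animal as a block it was 0.09 (SE 0.128) in the fitted libraries, where animal 2 has no control, and 0.34 (SE 0.168) with the left-out control included. For the remaining groups it was -0.03 for Slc6a11, -0.0015 for Abat, 0.02 for Gphn, 0.07 for Gabarap and 0.19 for Slc12a2. Over the 25 genes the median log2 fold change was -0.0023 and the median size of change 0.07, beside -0.0010 and 0.09 over all genes tested. Libraries of the LTP and control groups did not overlap for 5 of the 25 (20%), against 22.6% of all genes.

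At 3 hr, Gabra4 was lower and Gabrg3 higher in LTP slices than in control slices (2 of 25 genes called, 8.0%, against 6.6% of 17508 tested genes, with 3 libraries a group). Of all genes tested, 5.07% were called higher and 1.53% lower. Gabra4 encodes the alpha4 subunit, found in tonic and extrasynaptic GABA-A receptors. It had 137, 133 and 132 CPM in the 3 hr control libraries of animals 1 to 3 and 111, 115 and 106 CPM in their LTP libraries. Every LTP library lay below every control library (log2 fold change -0.26, SE 0.0562, 95% confidence interval -0.39 to -0.14, adjusted p = 0.0408), and within animals the log2 ratios were -0.30, -0.22 and -0.31. The change is 1.2-fold and lies at the fold minimum: DESeq2 gave -0.262 with an adjusted p of 0.00415, which is under that minimum.

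Gabrg3 encodes the gamma3 subunit, a less common partner in benzodiazepine-sensitive receptors. Its level was 25.3, 25.6 and 26.2 CPM in the 3 hr controls and 30.1, 30.6 and 31.4 CPM in the 3 hr LTP libraries. The groups did not overlap, and the log2 ratio within the 3 animals was 0.25, 0.25 and 0.26 (log2 fold change 0.27, SE 0.0656, 95% confidence interval 0.12 to 0.42, adjusted p = 0.0599). With offsets for GC content and length the value was 0.15 (adjusted p = 0.172) and the call was lost, while Gabra4 stayed called at -0.31. Leaving out any library other than 3 hr LTP replicate 2 ended both calls, with values from -0.27 to -0.24 (adjusted p 0.0519 to 0.202) for Gabra4 and from 0.24 to 0.29 (0.0948 to 0.272) for Gabrg3. At 1 hr Gabrg3 stood at 32.8 and 31.1 CPM in controls and at 36.7, 37.1 and 31.9 CPM in LTP slices. Its 3 hr controls, with which the 3 hr LTP libraries were compared, were lower than its 1 hr controls (-0.34, adjusted p = 0.00641).

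A further pair had an adjusted p under 0.1 with a fold change below the minimum and was not called. Gabrb1, encoding the beta1 subunit, stood at 97.4, 93.9 and 93.2 CPM in the 3 hr controls and 109.7, 106 and 111 CPM after LTP (0.22, SE 0.0542, adjusted p = 0.0655), but with GC and length offsets it was at 0.06 (0.505). Gabarapl2, a GABARAP relative that acts in autophagy and Golgi traffic, had 98.8, 100.4 and 88.7 CPM in controls and 81.9, 82.9 and 79.1 CPM after LTP (-0.23, SE 0.0641, adjusted p = 0.0936). In each of these genes the LTP libraries were all on one side of the controls, as they were for 8 of the 25 genes (32%) and for 27.0% of all genes tested. Gabra4 and Gabrb1 lie head to head on chromosome 5 in a cluster with Gabrg1 and Gabra2 (chr5:70751047-72149037), and their annotated ends share 0.756% of the exons of Gabra4 on opposite strands. The 4 clustered genes had log2 fold changes of -0.09 (Gabrg1, 29.6, 28.4 and 24.8 CPM against 23.9, 30.4 and 22.8), 0.07 (Gabra2, 57.7, 59.0 and 55.2 against 57.4, 60.8 and 60.9), -0.26 (Gabra4) and 0.22 (Gabrb1). With GC and length offsets Gabrg1 was at -0.27 (adjusted p = 0.074) and called.

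**Figure D2:**
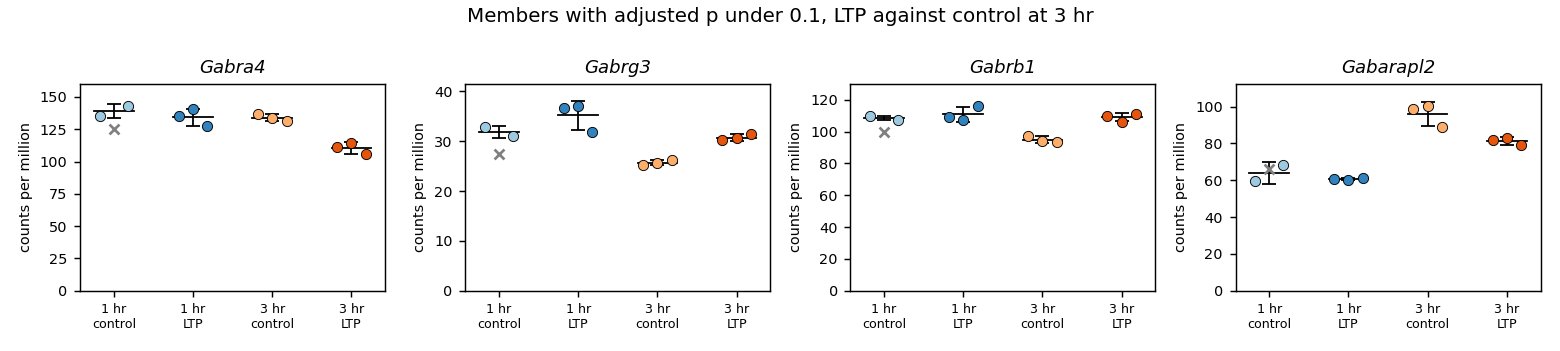
CPM of Gabra4, Gabrg3, Gabrb1 and Gabarapl2 in each library by group, with the group mean and SD as black lines and the 1 hr control replicate left out of the fits as a grey cross. At 3 hr the LTP libraries of Gabra4 (106 to 115) lie below the controls (132 to 137) and those of Gabrg3 (30.1 to 31.4) above them (25.3 to 26.2).

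None of the other 21 genes had an adjusted p under 0.1 at 3 hr. The other alpha subunit genes were at -0.17 for Gabra3 (46.9, 49.3 and 44.2 CPM against 40.3, 42.1 and 41.0, with no overlap, adjusted p = 0.188), -0.12 for Gabra5 (0.317) and 0.07 for Gabra2 (0.531). On the presynaptic side, Gad2 was at 79.7, 81.0 and 71.8 CPM in controls and 84.7, 84.8 and 88.7 CPM after LTP (0.16, adjusted p = 0.193). Gad1 was at 0.15 (0.266), and Slc32a1 at -0.11 with LTP libraries spread from 24.6 to 36.6 CPM. Gabbr2 was at 0.12, Glrb at -0.11, Slc6a11 (a GABA uptake transporter found mainly in astrocytes) at -0.05, Abat at -0.06, Gphn at 0.02 and Slc12a5 at 0.14. Over the 25 genes the median log2 fold change was -0.03 and the median size 0.12, beside -0.0025 and 0.13 over all genes.

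Gabrd, the delta subunit, was not called, and of the LTP libraries replicate 1 was the highest at both times. It had 17.3 CPM in 3 hr LTP replicate 1 and 11.94 and 11.98 in replicates 2 and 3, against 15.9, 14.6 and 17.1 in the 3 hr controls. In the same LTP libraries the summed level of 4 dentate granule cell markers was 286, 168 and 173 CPM, and at 1 hr Gabrd stood at 14.5, 11.8 and 11.9 CPM where that sum was 249.7, 191 and 154. None of the 4 markers was called in any comparison. The part of residual dentate tissue in the values of Gabrd was not tested.

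**Figure D3:**
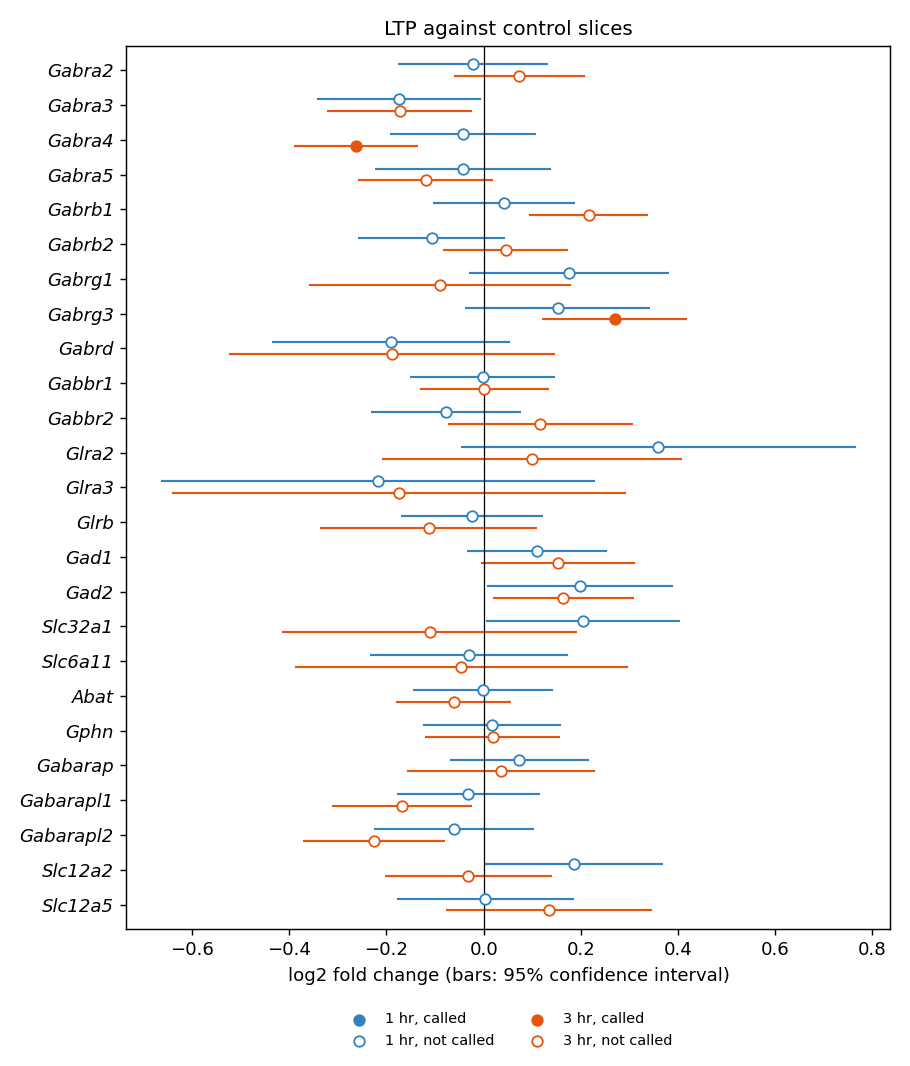
Log2 fold change of LTP against control slices for each of the 25 genes at 1 hr (blue) and 3 hr (orange), with 95% confidence intervals. Filled points are called, which holds for Gabra4 and Gabrg3 at 3 hr and for no gene at 1 hr.

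More of these genes were called between time points than between LTP and control slices. In control slices, 11 of the 25 genes were called between 1 hr and 3 hr (44.0%; background 32.8% of 18584 genes), 7 lower (background 16.8%) and 4 higher (background 16.1%). LTP slices gave 10 of 25 (40.0%; background 35.9%), 7 lower (background 17.3%) and 3 higher (background 18.6%). Time in the chamber and the animals used at each time cannot be told apart, and the 1 hr and 3 hr tables came from different slices. The control and LTP comparisons use different libraries of the same animals. Of the called genes 8 were shared, 72.7% of the control list and 80.0% of the LTP list, and 23 of 25 (92.0%) had the same sign in both. Over all 18584 genes, calls shared with the same sign made up 71.0% of the control list and 64.9% of the LTP list, and 80.5% had the same sign. Groups did not overlap for 18 genes (72.0%) in controls and 15 (60.0%) in LTP slices, against 60.7% and 44.9% of all genes, and the median log2 fold change was -0.12 and -0.17, against -0.019 and 9.5e-05.

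Among GABA-A subunits, Gabra5 fell most. Its control libraries went from 327 and 363 CPM at 1 hr to 254, 255 and 234 CPM at 3 hr (log2 fold change -0.51, SE 0.0871, adjusted p = 0.000931). Its LTP libraries went from 302, 325 and 371 to 213, 236 and 228 CPM (-0.58, SE 0.0789, adjusted p = 0.000159). In both treatments every 3 hr library lay below every 1 hr library, a fall of 1.42-fold and 1.49-fold, and the call was kept under each alternative run, with a smallest size of -0.38 under GC and length offsets in controls. Gabra4 passed the test in LTP slices (135, 140.4 and 127 to 111, 115 and 106 CPM, -0.30, SE 0.0574, adjusted p = 0.00143), and was at -0.09 in controls (135 and 143 to 137, 133 and 132 CPM), and the difference between the treatments did not pass (adjusted p = 0.685). The call in LTP slices was lost with GC and length offsets (-0.19) and without 1 hr LTP replicate 2 (-0.24), under the fold minimum in both. Gabra2 was at -0.0017 in controls and 0.10 in LTP slices and Gabra3 at -0.10 and -0.09, none of them called. With GC and length offsets Gabra2 was at 0.23 in controls (adjusted p = 0.0257) and called in LTP slices at 0.27 (0.00447).

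Among the beta and gamma genes, Gabrg3 fell in controls from 32.8 and 31.1 to 25.3, 25.6 and 26.2 CPM (-0.34, SE 0.0805, adjusted p = 0.00641), and in LTP slices it was at -0.22 with an adjusted p of 0.0315, under the fold minimum. Its call in controls was lost with GC and length offsets (-0.19), with the left-out 1 hr control included (-0.24) and without 1 hr control replicate 1 (adjusted p = 0.107). Gabrg1, whose gamma1 subunit is found in few neurons and in glia, fell in LTP slices from 32.6, 35.3 and 28.5 to 23.9, 30.4 and 22.8 CPM (-0.34, SE 0.111, adjusted p = 0.0272), although the libraries overlapped, and with GC and length offsets it was at -0.15 (0.164). It was no longer called on leaving out 1 hr LTP replicate 2 (-0.24, adjusted p = 0.155), 3 hr LTP replicate 1 (-0.29, 0.113) or 3 hr LTP replicate 3 (-0.26, 0.107). It was at -0.08 in controls. Gabrb1 was at -0.22 in controls (109.6 and 107.5 to 97.4, 93.9 and 93.2 CPM, adjusted p = 0.0133), under the fold minimum, and at -0.04 in LTP slices. Gabrb2 was at -0.15 and 0.0070, and neither gene was called. Gabrd was at 0.08 and 0.09.

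Of the GABA-B subunit genes, Gabbr1 fell in both treatments and Gabbr2 in controls. Gabbr1 went from 902 and 958 to 759, 776 and 766 CPM in controls (-0.31, SE 0.0699, adjusted p = 0.00525) and from 916, 860 and 989 to 775, 769 and 737 CPM in LTP slices (-0.30, SE 0.0630, adjusted p = 0.00274). It was under the fold minimum in controls with the left-out 1 hr control included (-0.26) and in LTP slices without 1 hr LTP replicate 3 (-0.21), and lost its call in controls without 1 hr control replicate 3 (-0.23, adjusted p = 0.102). Gabbr2 fell in controls, from 442 and 421 to 330.4, 341 and 365 CPM (-0.35, SE 0.0896, adjusted p = 0.00968), and without 1 hr control replicate 1 it was at -0.27 and lost the call by its adjusted p of 0.115. In LTP slices it was at -0.15 with overlapping libraries (413, 374 and 431 against 375, 331 and 406 CPM), but with GC and length offsets it was at -0.38 (adjusted p = 0.00013) and called, and the difference between the treatments was 0.20 with a 95% confidence interval of -0.06 to 0.46. Of the glycine receptor genes, Glrb fell in both, from 282 and 298 to 252, 243 and 217 CPM in controls (-0.32, SE 0.0961, adjusted p = 0.0229) and from 268, 288 and 292 to 215, 248 and 189.5 CPM in LTP slices (-0.40, SE 0.0867, adjusted p = 0.00304). In controls Glrb was not called with GC and length offsets (-0.14), with the left-out 1 hr control included (-0.20), without 1 hr control replicate 3 (-0.24, adjusted p = 0.214) or without 3 hr control replicate 3 (-0.24, 0.121), and in LTP slices not with GC and length offsets (-0.24). Glra2 (7.47 to 15.01 CPM) and Glra3 (1.11 to 2.27 CPM), both alpha subunits that bind glycine, were not called, although in LTP slices Glra2 was called on leaving out the 1 hr library of replicate 3 (-0.48) or the 3 hr library of replicate 2 (-0.50) and with no filter beyond 1 count (-0.32).

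Among the genes that supply GABA, Gad2 fell in both treatments and Slc32a1 rose in controls. Gad2, whose enzyme sits largely at nerve terminals, fell from 90.4 and 112 to 79.7, 81.0 and 71.8 CPM in controls (-0.41, SE 0.0889, adjusted p = 0.00381) and from 122, 117 and 107 to 84.7, 84.8 and 88.7 CPM in LTP slices (-0.44, SE 0.0802, adjusted p = 0.00106). Its paralog Gad1, whose enzyme is spread through the cell and makes most of the brain's GABA, was at 0.15 in controls (227 and 249 to 276, 277 and 253 CPM, adjusted p = 0.149) and 0.20 in LTP slices (260.0, 255 and 251 to 301, 315 and 273 CPM, adjusted p = 0.0318), under the fold minimum. Slc32a1 rose in controls from 22.0 and 24.0 to 32.4, 36.1 and 34.7 CPM (0.55, SE 0.137, adjusted p = 0.00835). In LTP slices it was at 0.24 (adjusted p = 0.129), where replicate 2 at 3 hr had 24.6 CPM and the others 33.5 and 36.6. That library also had the lowest pyramidal marker sum of the 3 hr LTP group, 2789 CPM against 3559 and 4247, while its interneuron marker sum was 429 CPM against 428 and 457. Without it Slc32a1 was called at 0.40, as it was at 0.33 without 1 hr LTP replicate 1. With GC and length offsets Slc32a1 was at 0.07 in controls (adjusted p = 0.633) and at -0.16 in LTP slices (0.144), so the call was lost in the first and the direction turned in the second, and its exons are 61.9% G or C. The left-out 1 hr control had 26.6 CPM of Slc32a1 and 85.1 CPM of Gad2, and with it included both stayed called, at 0.51 and -0.30. Without 1 hr control replicate 3 Gad2 in controls was at -0.21 (adjusted p = 0.149).

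Beside these, the summed level of 13 interneuron markers went from 485 to 523 CPM in 1 hr controls to 414 to 450.2 CPM in 3 hr controls, and from 455 to 528 to 428 to 457 CPM in LTP slices. Of 12 tested, 5 (41.7%) were called lower and 0 higher in each treatment, where 16.8% and 17.3% of all genes were called lower. Their part in the fall of Gad2 was not tested. Astrocyte marker sums overlapped between the time points (1968 in both 1 hr controls, 1852 to 2046 CPM in 3 hr controls), and Slc6a11 was at 0.17 in both treatments without a call (called at 0.32 in LTP slices without 3 hr LTP replicate 2). Abat, the enzyme that degrades GABA, was at -0.12 in controls and at -0.17 in LTP slices (adjusted p = 0.0241), under the fold minimum. The oligodendrocyte marker sum was higher at 3 hr in controls (4613 to 5600 CPM, then 6302 to 7741 CPM). The microglial sum was lower at 3 hr in controls (246 to 262, then 173 to 199.5 CPM) and in LTP slices (242 to 258.5, then 162 to 187 CPM). The endothelial sum was lower in controls (90.4 to 97.4, then 74.1 to 76.9 CPM) and overlapped in LTP slices (77.05 to 80.8, then 72.9 to 85.9 CPM).

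**Figure D4:**
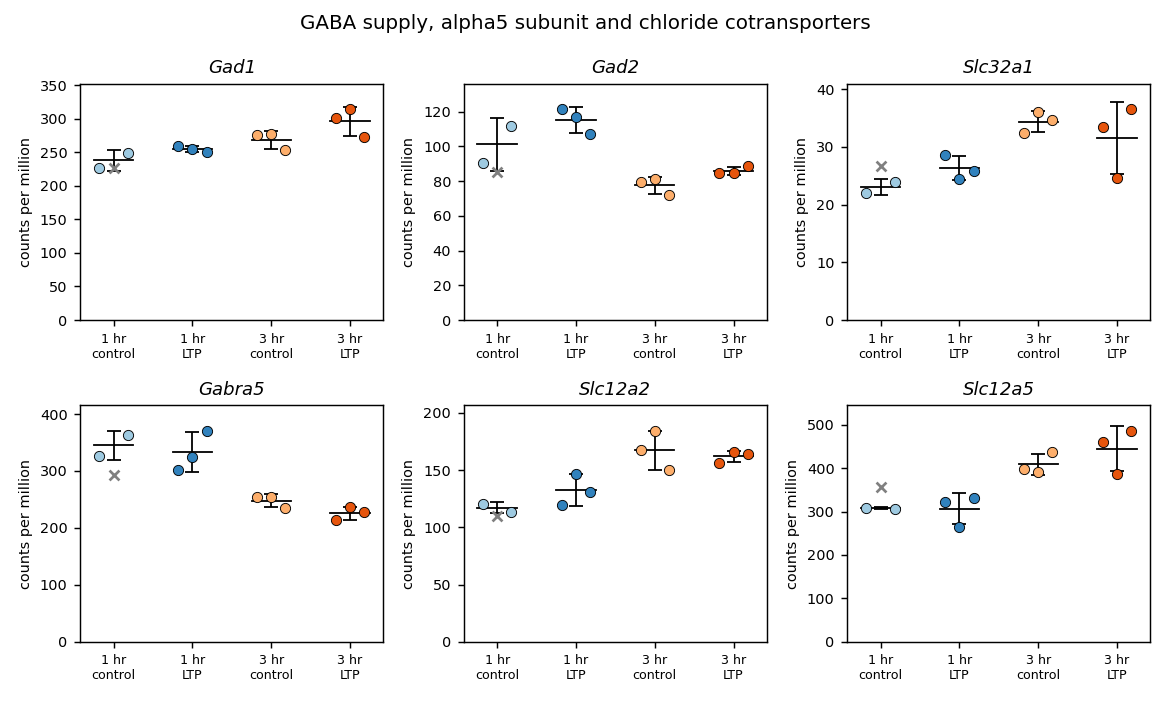
CPM of Gad1, Gad2, Slc32a1, Gabra5, Slc12a2 and Slc12a5 in each library by group, with mean and SD as black lines and the left-out 1 hr control as a grey cross. Gad2 and Gabra5 are lower at 3 hr in both treatments, Slc12a2 and Slc12a5 higher, and Slc32a1 is higher in the 3 hr controls (32.4 to 36.1) with 1 low 3 hr LTP library (24.6).

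At the postsynapse, Gphn encodes gephyrin, the scaffold that holds glycine and GABA-A receptors in place. It fell from 115.5 and 121 to 103, 100.1 and 94.8 CPM in controls (-0.28, SE 0.0628, adjusted p = 0.00441) and from 120.0, 119 and 118 to 98.2, 105 and 96.0 CPM in LTP slices (-0.27, SE 0.0565, adjusted p = 0.00219). This change lies close to the fold minimum, and leaving out 1 of the 11 libraries ended the call for 5 of them in each treatment, with values between -0.26 and -0.21. It was also lost in both treatments with GC and length offsets (-0.18 and -0.17), with the left-out 1 hr control included (-0.23 and -0.26), with total counts (-0.24 and -0.26) and with no filter beyond 1 count (-0.26 in both). Of the GABARAP family Gabarapl2 was called. It rose from 59.7 and 68.1 to 98.8, 100.4 and 88.7 CPM in controls (0.56, SE 0.0748, adjusted p = 0.000207) and from 60.9, 60.1 and 61.4 to 81.9, 82.9 and 79.1 CPM in LTP slices (0.40, SE 0.0662, adjusted p = 0.000546), and it kept the call under every alternative run. Gabarap, which binds GABA-A gamma subunits, was at -0.23 and -0.26 and Gabarapl1 at -0.13 and -0.26, with adjusted p under 0.05 in all but Gabarapl1 in controls (0.183), all under the fold minimum. In LTP slices Gabarapl1 was called with GC and length offsets (-0.28, adjusted p = 0.00338) and on leaving out replicate 2 of the LTP group at 1 hr (-0.28) or at 3 hr (-0.30), and Gabarap on leaving out that of 3 hr (-0.35). Near-identical copies of these genes could share their reads.

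Both chloride cotransporter genes rose. Slc12a2 encodes NKCC1, which brings chloride into cells, and Slc12a5 encodes KCC2, which exports it from mature neurons. Slc12a2 went from 121 and 114 to 167, 184 and 150.4 CPM in controls (0.48, SE 0.0937, adjusted p = 0.00198) and from 119, 147 and 131 to 157, 166 and 164 CPM in LTP slices (0.27, SE 0.0827, adjusted p = 0.0194). Slc12a5 went from 309 and 306 to 398, 391 and 437 CPM in controls (0.38, SE 0.108, adjusted p = 0.0169) and from 322, 265 and 331 to 460.5, 386 and 486 CPM in LTP slices (0.52, SE 0.0958, adjusted p = 0.00112). The 1 hr and 3 hr libraries did not overlap for either gene in either treatment. With GC and length offsets Slc12a5 lost its call, at 0.06 in controls and 0.20 in LTP slices, whereas Slc12a2 was at 0.66 and 0.37. In LTP slices Slc12a2 was under the fold minimum without 1 hr LTP replicate 1 (0.23) or without 3 hr LTP replicate 2 (0.26). Slc12a2 is also made by glia, and the oligodendrocyte marker sum was higher at 3 hr in controls (above) and overlapped in LTP slices (5421 to 6498, then 6255 to 7660 CPM). The part of glia in its rise was not tested.

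**Figure D5:**
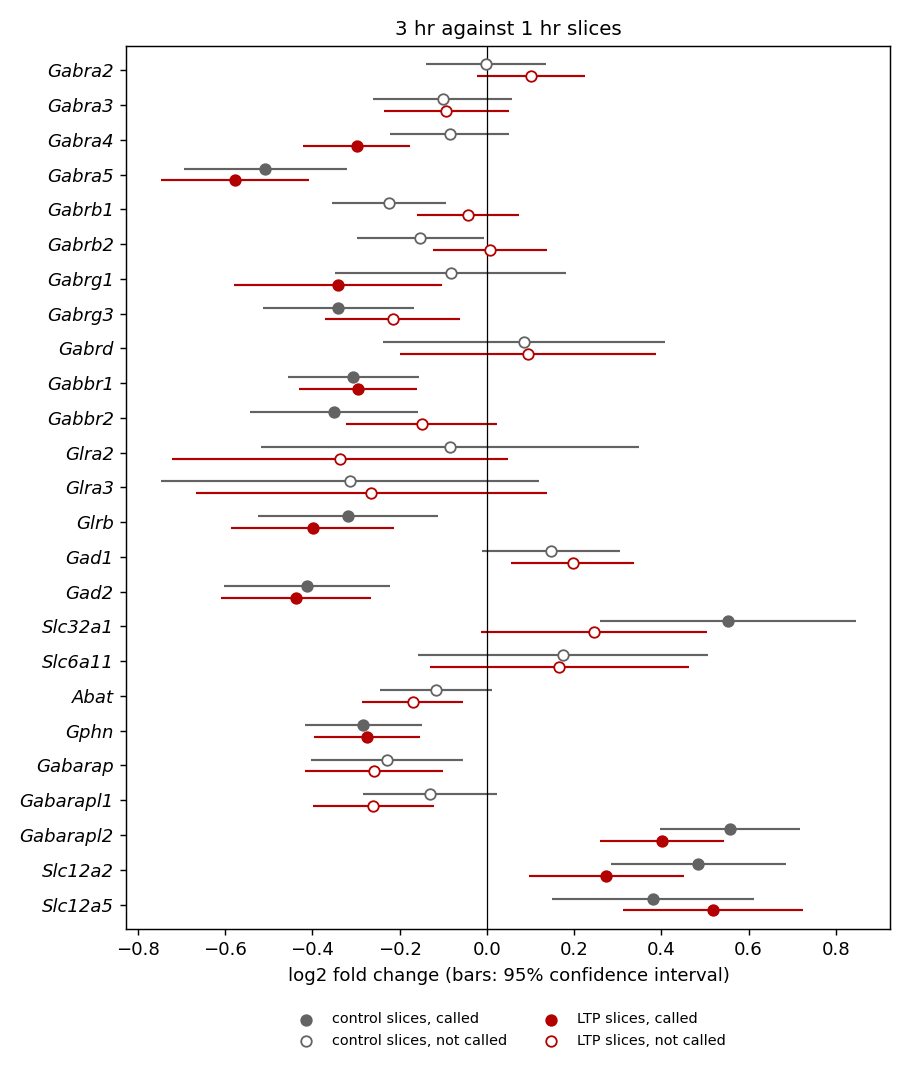
Log2 fold change of 3 hr against 1 hr slices for each of the 25 genes in control slices (grey) and LTP slices (red), with 95% confidence intervals. Filled points are called, 11 in controls and 10 in LTP slices, and 23 of the 25 genes lie on the same side of 0 in both.

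Whether the LTP effect differed between 1 hr and 3 hr was tested directly in 1 model of the 11 libraries. By edgeR 0 of the 25 genes passed (adjusted p under 0.1), as did 0.0592% of all 18584 genes, and DESeq2 and limma-voom also gave 0. At an unadjusted p under 0.05 there were 2 of 25, beside 6.59% of all genes: Gabra4 with a difference of -0.21 (SE 0.0861, adjusted p = 0.685) and Gabrb1 with 0.18 (SE 0.0819, adjusted p = 0.743). The call of Gabra4 at 3 hr alone is therefore not shown to be a change of effect with time. The interval for Slc32a1 ran from -0.70 to 0.08 and that for Slc12a2 from -0.48 to 0.06, so a sizable negative difference was not excluded for either.

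Of 47 further genes of inhibitory signalling, in 5 lists, 38 were tested at 1 hr, with 0 called by edgeR. At 3 hr, 37 were tested and 4 (10.8%) were called, all higher in LTP slices, where 6.6% of all genes were called and 5.07% were higher. Kcnj6 encodes the GIRK2 potassium channel opened by GABA-B receptors. It stood at 59.8, 55.6 and 54.4 CPM in controls and 83.6, 70.7 and 78.2 CPM after LTP (0.47, SE 0.0772, adjusted p = 0.0179). Kctd16, an auxiliary GABA-B subunit, rose by 0.29 (SE 0.0664, adjusted p = 0.0495), from 33.6, 34.1 and 35.1 to 43.2, 40.3 and 41.4 CPM. Shisa7, a GABA-A auxiliary protein, rose by 0.54 (SE 0.122, adjusted p = 0.0494), from 51.04, 52.2 and 58.3 to 76.5, 64.4 and 92.3 CPM. Wnk1, a kinase upstream of the chloride cotransporters, rose by 0.47 (SE 0.0955, adjusted p = 0.0359), from 136, 135 and 129 to 169, 165 and 214 CPM. By list, these were 2 of 7 GABA-B auxiliary and channel genes, 1 of 17 postsynaptic and trafficking genes and 1 of 5 cotransporter kinases, with 0 of 7 tested genes of GABA and glycine transport and metabolism. Without 3 hr LTP replicate 3, an alternative chosen after the data were seen, the 4 stayed called, at 0.45 (Kcnj6), 0.29 (Kctd16), 0.39 (Shisa7) and 0.33 (Wnk1), and Slc38a2 (-0.28, adjusted p = 0.0847) and Lhfpl4 (-0.33, 0.086) were called lower, which made 6 of 39 (15.4%) against 7.45% of all genes.

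Between time points 8 of 40 tested genes of these lists were higher and 8 lower in controls, and 9 were higher and 8 lower in LTP slices (40.0% and 42.5% called, against 32.8% and 35.9% of all genes). Of the postsynaptic genes, Lhfpl4, which links GABA-A receptors to neuroligin-2, rose by 0.80 in controls and 0.68 in LTP slices, and Nlgn2 (neuroligin-2) rose by 0.48 and 0.72. Zdhhc3, a palmitoyltransferase of the gamma2 subunit, rose by 0.28 in controls and Iqsec3, a gephyrin partner, by 0.46 in LTP slices. Plcl2 fell by 0.41 and 0.36 and Rdx (radixin, which anchors alpha5 receptors) by 0.34 and 0.37. Kcnj3, the GIRK1 channel, fell by 0.44 and 0.47, while Kctd12 rose by 0.40 in controls and Kctd12b fell by 0.35 in LTP slices. Slc38a2, a glutamine transporter, rose by 0.81 and 0.38, Slc6a9, a glycine transporter, rose by 0.39 and 0.37, and Slc6a13, another GABA transporter, fell by 0.80 and 0.48. Of the kinases, Wnk3 fell by 0.43 and 0.36 and Stk39 (SPAK) by 0.28 and 0.31, while Wnk2 rose by 0.49 and 0.77. In controls Wnk2 went from 35.2 and 32.7 to 44.5, 47.6 and 53.6 CPM (adjusted p = 0.056). The left-out 1 hr control had 47.9 CPM of Wnk2, inside the range of the 3 hr controls. Wnk1 fell by 0.30 in controls (SE 0.108, adjusted p = 0.0513), from 179 and 143 to 136, 135 and 129 CPM, and these 3 hr controls are the ones its LTP libraries were compared with. The left-out 1 hr control had 143 CPM of Wnk1, like replicate 3, and only replicate 1 stood at 179 CPM. The genes of these lists were not refitted with the left-out library or with GC and length offsets. Of 9 further receptor subunits only 3 reached the filter. Gabra6, the cerebellar granule cell subunit, had at most 1 count in a library and Gabrp at most 2. Glra4 counted among the higher calls in controls with at most 16 counts in a library, too few for a fold change.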

How the data were processed

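Per the labels, RNA was measured in 12 libraries of 4 groups of 3. The authors depleted ribosomal RNA, aligned paired reads with STAR to mm10 and used Bioconductor packages to count them over genes, and the submitters' processing notes also name DESeq2. The study's text limits its expression analysis to reads over coding sequence, whereas non-coding genes held 3.73 to 5.97% of each library's counts here. Each deposited table, 1 per time point, held raw counts for 41091 Ensembl IDs. Of these 874 had no match in GENCODE M21 and stayed in the totals. Strand use and multiply aligned reads in counting are not given in the sources used here, so exons shared with another gene (24.9% of Slc32a1 with Gm14205, 28.3% of Gabarapl1 with 1700101I11Rik) are uncertain; those partners had at most 5 and 50 counts.

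Counts were tested with edgeR 4.0.16 in R 4.3.3 (filterByExpr, TMM, quasi-likelihood F test, Benjamini-Hochberg over all genes). Calls were made past 1.2-fold where the adjusted p was below 0.1 (adjusted p alone for the difference of effects). Each time point was fitted alone (5 libraries at 1 hr, 6 at 3 hr), and the other comparisons in 1 model of 11 libraries. The 1 hr LTP test shares its controls with the time comparison of controls, as does the 3 hr test. CPM are TMM-scaled over 12 libraries. Replicates are separate animals. The labels number animals alike at both times and do not say whether they are the same; they were assumed to differ. Control and LTP slices of a number came from 1 animal; correlations of their deviations were -0.017, -0.119 and 0.074 at 1 hr and 0.025, -0.046 and 0.178 at 3 hr. Fits were tested on simulated data. Intervals cover 95%.

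Every called gene was given in every library, with the smallest p of each role group and the paralogs of called genes. Pathway genes were named where called, at most 3 a list and direction, and 1 result is not reported here; Gabra6, Gabrp and Nkx2-1 were named for their low counts. The genes and lists were chosen with earlier results of these data known. Alternatives were DESeq2 1.42.0, limma-voom (limma 3.58.1), DESeq2 size factors, total counts, no filter beyond 1 count, adjusted p under 0.05, GC and length offsets (from GENCODE transcripts), leaving out each library, including 1 hr control replicate 2, and animal as a block.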

Additional observations from a re-analysis of the deposited data

How the results depend on the processing

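At 1 hr and for the difference of LTP effects, 0 genes were called under every alternative run. At 3 hr the count of 2 fell to 1 with DESeq2, with DESeq2 size factors, with total counts, with no filter beyond 1 count and with an adjusted p under 0.05, and ran from 0 to 2 when each library was left out in turn, which leaves fewer libraries; the cause of the others was not tested. With the replicate block, which pairs the slices of an animal, it was 2, and the block changed no call. GC and length offsets also gave 2, Gabra4 and, in place of Gabrg3, Gabrg1. For 3 hr against 1 hr in controls the count of 11 fell to 6 with GC and length offsets and to 7 with 1 hr control replicate 2 included, and ran from 7 (without 1 hr control replicate 3) to 11 when a library was left out. In LTP slices GC and length offsets gave 8 for 10, with 5 shared: Gabra4, Gabrg1, Glrb, Gphn and Slc12a5 were lost and Gabra2, Gabbr2 and Gabarapl1 gained. That count ran from 8 to 14 on leaving out a library, with 14 without 3 hr LTP replicate 2. No paired fit was made across time points because the animals were assumed to differ there. No called value changed sign. Depth limited Glra3, at 1.11 to 2.27 CPM, and receptor subunits with a few counts.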
